A study of Mus musculus with 6 samples.

Results

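The 10 genes of the BCL2 family studied here, which set the threshold for cell death at the mitochondrion, were followed in mouse megakaryocyte cultures with and without p45. They were 3 pro-survival members (Bcl2, Bcl2l1, Mcl1), 2 pro-death effectors (Bax, Bak1) and 5 BH3-only genes (Bid, Bad, Bcl2l11, Bbc3, Pmaip1). They were named as genes of known function, but with earlier results of these data known. Every non-control probe whose RefSeq accession maps to one of these 10 symbols was taken, which gave 16 probes of the 41174 on the array. All 16 probes were well above background on all 6 arrays, and so all 10 genes were among the 18210 genes tested.

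Megakaryocytes are the platelet-forming cells of blood, and p45, encoded by Nfe2, is the blood-restricted subunit of the NF-E2 transcription factor. The cultures came from fetal livers of the C57BL/6 strain at stage E13.5. The p45-/- genotype was cultured for 3 arrays and the WT (wild type) genotype for 3 arrays, each a single-colour Agilent array of Cy3-labelled RNA, with the experiments described as independent. The label on RNA extraction speaks of whole embryos where the source label speaks of cultured megakaryocytes, and no label describes the deleted allele or the culture medium. No label says that same-numbered cultures were set up together, or how many animals gave each culture, so the p-values measure the spread between these samples only.

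In the mitochondrial pathway of apoptosis, BAX and BAK open the outer mitochondrial membrane and release cytochrome c, which starts the caspases. BCL2, BCL-XL and MCL1 hold them back, and the BH3-only proteins either bind the survival proteins or act on BAX and BAK directly. Megakaryocytes and the platelets they shed are known to depend on BCL-XL and MCL1 held against BAK and BAX, so the ratio of the 2 sides matters for how long these cells live.

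None of the 10 members passed the test. Their log2 differences, p45-/- minus WT, ran from -0.91 for Bbc3 to 0.22 for Bcl2, and the p adjusted over all 18210 genes (limma, Benjamini-Hochberg) was 0.70 or higher for each. In group mean 9 of the 10 members were lower in p45-/-, with a median difference of -0.53, against 53.5% of all genes tested and a median of -0.05. With each gene taken by its brightest probe, Bbc3 (PUMA), a BH3-only killer, and Bak1, an effector, were the members with all 3 p45-/- arrays below all 3 WT arrays. That is 2 of 10 members, where 8.44% of all genes tested were separated in this direction and 4.77% in the other. Both are pro-death genes, but 2 dimmer probes of the pro-survival gene Bcl2l1 separated the groups in the same way. The dimmer Bak1 probe, whose signal before scaling was nearly flat, was higher in p45-/- after scaling.

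The fit called 0 of the 18210 genes at an adjusted p of 0.05 (0%), and 477 genes (2.62%) were higher and 606 (3.33%) lower at an unadjusted p under 0.05. With the replicate number as a block the balance turned, with 2612 genes (14.3%) higher and 1086 (5.96%) lower at an unadjusted p under 0.05. That fit of limma called 5 genes at an adjusted p of 0.05 (0.0275%), none of them a member. With 3 arrays a group, the smallest p that an exact permutation test of a single gene can give is 0.1.

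The arrays differed in brightness and p45-/- array 1 stood apart. Its 75th percentile of processed signal was 135, against 339 to 589 on the other 5, and its log2 levels correlated with those of the other arrays at 0.78 to 0.88 across genes. It held the lowest level of 8 of the 10 members and of 47.3% of all genes tested. Without both arrays numbered 1, 6 of 10 members were lower, with a median of -0.26 against 0.09 for all genes. Nfe2 itself measured 4.87, 6.43 and 6.34 on the p45-/- arrays and 5.24, 6.57 and 6.33 on the WT arrays, a log2 difference of -0.17 ± 0.57 (SE), so the probe did not separate the groups. Where that probe lies relative to the deletion is not known here.

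The 250 bases before an annotated start site are shown for Bbc3, Bak1 and Bcl2l11, the 3 members with the smallest unadjusted p and the largest differences. They come from RefSeq on GRCm38.p6 and read 5′ to 3′ on the strand of the gene. The Bbc3 window is chr7:16310011-16310260 on the plus strand, the Bak1 window chr17:27028628-27028877 on the minus strand and the Bcl2l11 window chr2:128125788-128126037 on the plus strand. Capitals mark a match to the FOXO motif GTAAACA on either strand, and Bak1 has none. Bbc3 and Bcl2l11 have other annotated start sites without a match, and the window shown for each is the one that holds it.
Bbc3: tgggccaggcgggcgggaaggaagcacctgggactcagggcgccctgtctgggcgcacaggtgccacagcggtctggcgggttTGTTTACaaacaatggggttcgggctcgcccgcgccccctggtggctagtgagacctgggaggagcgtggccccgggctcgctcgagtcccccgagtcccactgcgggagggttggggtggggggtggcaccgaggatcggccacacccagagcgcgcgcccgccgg
Bak1: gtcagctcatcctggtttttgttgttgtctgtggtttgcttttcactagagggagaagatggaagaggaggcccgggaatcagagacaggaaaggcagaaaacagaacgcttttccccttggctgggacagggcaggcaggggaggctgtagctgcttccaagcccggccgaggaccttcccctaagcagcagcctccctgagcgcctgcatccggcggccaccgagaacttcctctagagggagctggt
Bcl2l11: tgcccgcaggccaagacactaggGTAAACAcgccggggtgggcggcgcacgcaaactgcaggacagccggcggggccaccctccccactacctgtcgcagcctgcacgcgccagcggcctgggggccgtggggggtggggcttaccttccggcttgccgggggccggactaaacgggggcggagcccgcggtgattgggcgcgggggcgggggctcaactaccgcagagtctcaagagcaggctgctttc

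RefSeq start sites were found for 9 of the 10 members, in 15 windows that ran from 250 bases before to 50 bases after the start. The FOXO motif occurred in 2 of them, the windows of Bcl2l11 and Bbc3 shown above, against 3.65% of all 32851 windows of that length in the RefSeq table. FOXO proteins are known activators of both genes when cytokine signalling is withdrawn. The NF-E2 and AP-1 core TGANTCA occurred in 0 of the 15 windows and in 7.81% of all windows, and the longer GCTGANTCA, which contains it, in 0 and 1.19%. The STAT motif TTCNNNGAA occurred in 0 of 15 and in 8.3% of all windows. The GATA motif AGATAA occurred in 1 window, of Bcl2l1, and in 11.2% of all, and the GC box GGGCGG in 10 windows of 7 genes and in 35.7% of all. The windows of the members were 49.3% to 78% GC, where the median of all windows was 52.7%, and only windows of Bcl2l1 lay below that median. The shares were not matched for GC content, so no excess or lack of a motif is read from them. Both strands were searched, windows of 1 gene can overlap, as 2 of Bbc3 do, and a match is a description of letters only.

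The plotted level of a gene is its log2 processed signal minus the array's log2 75th percentile, so 0 is the 75th percentile of the array, and levels are compared only within a probe. The plot of levels by array shows all 10 members.

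**Figure D1:**
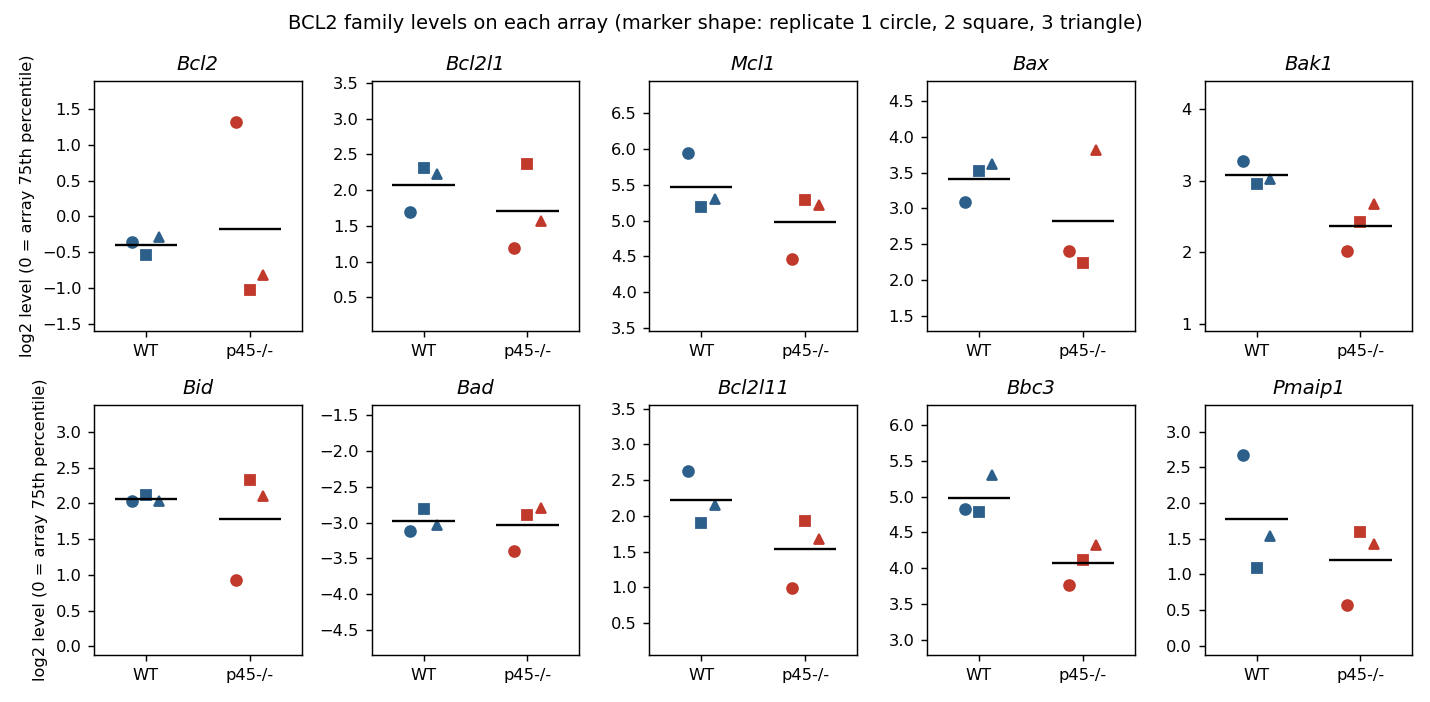
Log2 level (0 is the 75th percentile of the array) of the 10 members on the 3 WT arrays (blue) and the 3 p45-/- arrays (red), with marker shape giving the replicate number and a bar the group mean; each panel spans the same number of log2 units around its own centre. Bak1 and Bbc3 have all p45-/- arrays below all WT arrays, while Bcl2, Bcl2l1, Bax, Bid and Bad have at least 1 p45-/- array above every WT array.

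Mcl1 encodes a short-lived survival protein that binds BAK and most BH3-only proteins. Its level was 4.46, 5.28 and 5.22 on p45-/- arrays 1 to 3 and 5.94, 5.19 and 5.30 on WT arrays 1 to 3. The 2 arrays numbered 1 were the extremes, low in p45-/- and high in WT, and the other 4 arrays lay within 5.19 to 5.30, so the groups overlapped. The log2 difference was -0.49 ± 0.37 (SE; adjusted p = 0.71 in limma), and without the arrays numbered 1 it was 0.0056. A second Mcl1 probe gave -0.46 with the same order of extremes, at 3.31 on p45-/- array 1 and 4.78 on WT array 1.

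Bcl2l1 encodes BCL-XL, the survival protein on which platelet lifespan is known to depend. Its brightest probe, which is spotted 10 times on each array, measured 1.19, 2.36 and 1.57 in p45-/- and 1.70, 2.31 and 2.22 in WT. The groups overlapped, since p45-/- array 2 was the highest of all 6. Its log2 difference was -0.37 ± 0.40 (SE; adjusted p = 0.76 in limma), and it ranged from -0.11 without p45-/- array 1 to -0.70 without p45-/- array 2.

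The other probes of Bcl2l1 were single spots and did separate the groups. One measured 0.10, 0.11 and -0.19 in p45-/- and 0.35, 0.58 and 0.48 in WT, a difference of -0.46 (adjusted p = 0.71 over all probes in limma). The other, dimmer one measured -1.79, -2.34 and -2.05 against -1.62, -1.62 and -1.46, a difference of -0.49. All 3 probes carry the same RefSeq accession, and all gave a lower mean in p45-/-, while they disagree on p45-/- array 2.

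Bcl2, the founding member of the family and a survival gene, was the only member higher in group mean. It measured 1.32, -1.03 and -0.82 in p45-/- and -0.36, -0.54 and -0.28 in WT. The higher mean came from p45-/- array 1 alone, and the other 2 p45-/- arrays lay below all 3 WT arrays. This gave a log2 difference of 0.22 ± 0.64 (SE; adjusted p = 0.91 in limma) and -0.52 without the arrays numbered 1. The second Bcl2 probe, spotted 10 times, matches another RefSeq transcript and went the other way, at -2.08, -1.18 and -1.57 in p45-/- against -1.53, -1.04 and -0.97 in WT. Its difference was -0.43, so the direction for Bcl2 depends on the probe as well as on 1 array.

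Bak1 encodes BAK, the effector that BCL-XL restrains in platelets. Its level was 2.01, 2.42 and 2.68 in p45-/- and 3.28, 2.95 and 3.02 in WT. Every p45-/- array lay below every WT array, with a gap of 0.28 between the nearest 2, and the log2 difference was negative in all 3 same-numbered pairs, at -1.26, -0.53 and -0.34. It was -0.71 ± 0.30 (SE; 95% interval -1.44 to 0.01; unadjusted p = 0.053, adjusted p = 0.70 in limma; exact permutation p = 0.1, the smallest possible), a 1.64-fold difference. A second, much dimmer Bak1 probe was higher in p45-/-, at -1.0, -2.71 and -2.93 against -2.23, -3.15 and -3.01, with overlapping groups and a difference of 0.58. Before scaling, the processed signal of this probe was 67.5, 62.2 and 77.2 in p45-/- and 72.2, 65.7 and 71.6 in WT. It stayed nearly flat while the 75th percentile of the arrays ran from 135 to 589. Its scaled level therefore mostly mirrors that percentile, which was lowest on p45-/- array 1. The 2 Bak1 probes disagree in sign after scaling, and their mean differed by -0.07.

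Bax encodes the other effector. Its probe, spotted 10 times, measured 2.40, 2.24 and 3.82 in p45-/- and 3.09, 3.52 and 3.63 in WT. The p45-/- group was split, with arrays 1 and 2 below all WT arrays and array 3 above all of them. Over all arrays Bax differed by -0.59 ± 0.48 log2 units (SE; adjusted p = 0.72 in limma), and it was -0.98 on the slide that held arrays 1 and 2 of both groups and 0.20 on the slide that held array 3 of both. The SD between the 10 Bax spots of an array was 0.04 to 0.06 log2 units, against 0.87 between the 3 p45-/- arrays, so the error between spots was far smaller than the spread between samples.

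Bbc3 encodes PUMA, a BH3-only protein that binds every survival member and is induced through p53 and FOXO factors. Its level was 3.76, 4.12 and 4.33 in p45-/- and 4.82, 4.79 and 5.31 in WT. The groups did not overlap, and the lowest WT array lay 0.46 above the highest p45-/- array, against a gap of 0.28 for Bak1. Bbc3 differed by -0.91 ± 0.31 log2 units (SE; 95% interval -1.65 to -0.16; unadjusted p = 0.024, adjusted p = 0.70 in limma; exact permutation p = 0.1), a 1.87-fold difference, with -1.06, -0.67 and -0.98 in the 3 pairs. With the replicate number as a block the adjusted p was 0.16. Bbc3 was 1 of 10 members with an unadjusted p under 0.05 in that direction, where 3.33% of all genes were (with the block, 1 of 10 and 5.96%). Its difference without the arrays numbered 1 was -0.83.

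Bcl2l11 encodes BIM, a BH3-only protein controlled by cytokine signalling. Its brighter probe measured 0.98, 1.93 and 1.68 in p45-/- and 2.62, 1.90 and 2.15 in WT. Only p45-/- array 2 reached into the WT range, just above WT array 2. The log2 difference was -0.69 ± 0.37 (SE; adjusted p = 0.70 in limma) and -0.22 without the arrays numbered 1. A second Bcl2l11 probe gave -0.65, with WT array 1 far above the rest at -0.80 where the other 5 arrays lay between -2.76 and -2.04.

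Pmaip1 encodes NOXA, a BH3-only protein that binds MCL1. It measured 0.57, 1.59 and 1.42 in p45-/- and 2.68, 1.09 and 1.54 in WT. The 2 arrays numbered 1 were again the extremes, and the groups overlapped. Pmaip1 differed by -0.57 ± 0.51 log2 units (SE; adjusted p = 0.73 in limma) and 0.19 without those arrays.

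Bid encodes the BH3-only protein that caspase-8 cleaves to link death receptors to mitochondria. It measured 0.94, 2.33 and 2.11 in p45-/- and 2.04, 2.12 and 2.04 in WT. The WT arrays lay close together, with an SD of 0.05, and only p45-/- array 1 was below them. Bid differed by -0.28 ± 0.42 log2 units (SE; adjusted p = 0.83 in limma) and 0.13 without the arrays numbered 1.

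Bad encodes a BH3-only protein that phosphorylation by AKT and PIM kinases silences. It was dim, with a processed signal of 12.8 to 84.4, and its level was -3.40, -2.90 and -2.80 in p45-/- and -3.12, -2.81 and -3.03 in WT. The groups overlapped fully. The log2 difference was -0.05 ± 0.30 (SE; 95% interval -0.77 to 0.67; adjusted p = 0.96 in limma), and it was 0.41 with normexp background correction and -0.55 with quantile normalization, so no direction is given for Bad.

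**Figure D2:**
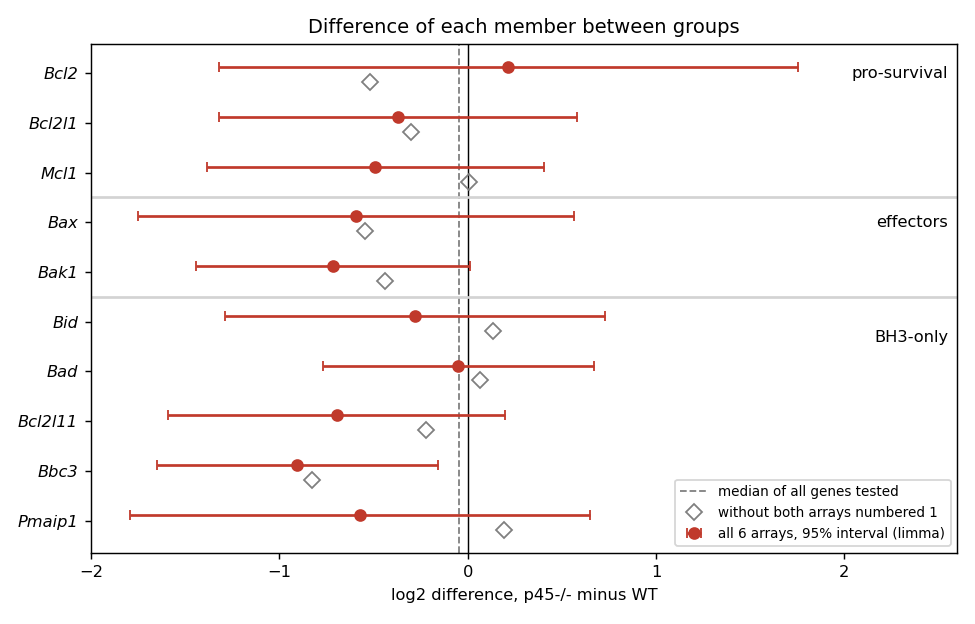
Log2 difference, p45-/- minus WT, of each member (red point) with its 95% interval from limma, grouped by role; open diamonds are the same difference without both arrays numbered 1 and the dashed line is the median of all genes tested. The interval of Bbc3, from -1.65 to -0.16, is the only one that does not include 0, and the diamonds of Mcl1, Bid, Bad and Pmaip1 lie at or above 0.

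Over the 16 probes of the 10 members, 14 had a lower mean in p45-/- and 4 had groups that did not overlap, all 4 lower. Among all 23957 probes kept, 56.9% had a lower mean, 8.95% were lower without overlap and 4.47% higher without overlap. The probes that were higher were those of Bcl2 and Bak1 described above, and the other probe of each gene was lower.

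The shift differed between the same-numbered pairs. In pair 1, 9 of 10 members were lower in p45-/-, with a median of -1.08 where the median of all genes was -0.37. In pair 2, 5 of 10 members were lower (median -0.03, all genes 0.12), and in pair 3, 7 of 10 (median -0.23, all genes 0.06). Bak1 and Bbc3 were lower in all 3 pairs, which is 2 of 10 members where 23.6% of all genes tested were.

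**Figure D3:**
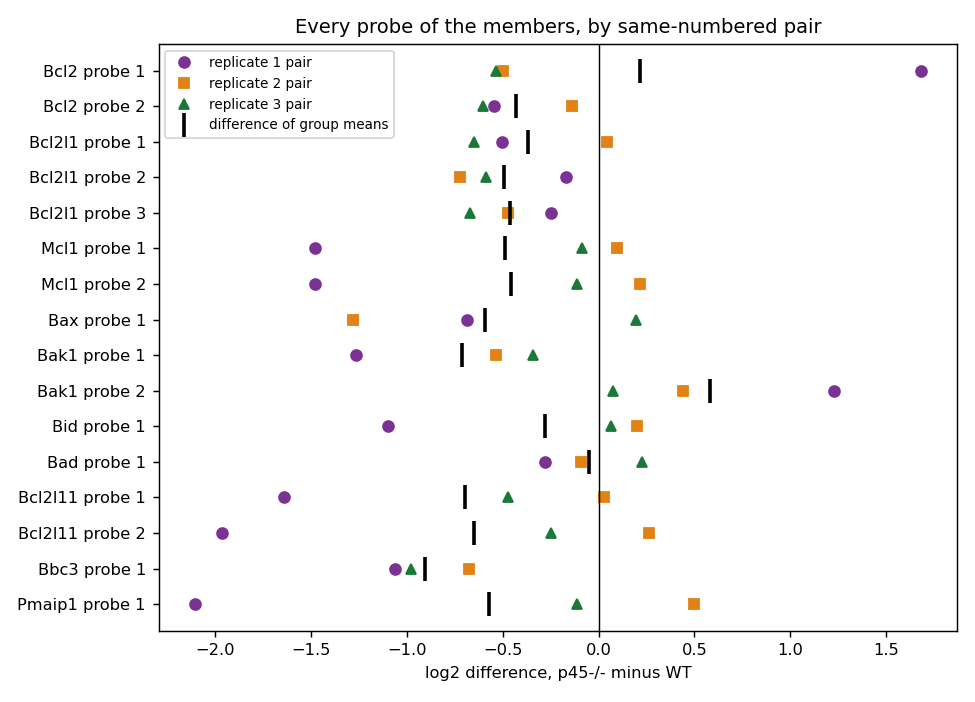
Log2 difference, p45-/- minus WT, of every probe of the members within each same-numbered pair (purple circle 1, orange square 2, green triangle 3), with a black bar for the difference of group means. Pair 1 reaches from -2.11 for Pmaip1 to 1.68 for the first Bcl2 probe, while pairs 2 and 3 lie closer to 0 for most probes.

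Weighed as sides, the 3 pro-survival members had a median difference of -0.37 and the 7 pro-death members of -0.59, with -0.65 for the 2 effectors. With so few members, the survival and death medians over all arrays are the values of single genes, Bcl2l1 and Bax. In a pair or on an array the median gene can be another. The survival side minus the death side was therefore 0.22, with 0.60, 0.14 and -0.42 in pairs 1, 2 and 3 and an SD of 0.51 over them. The pairs thus did not share a sign, and the difference was smaller than their spread. On the single arrays the same balance, from deviations from the WT mean, was 0.25, 0.10 and -0.08 in p45-/- and 0.06, -0.01 and 0.15 in WT, so the groups overlapped.

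**Figure D4:**
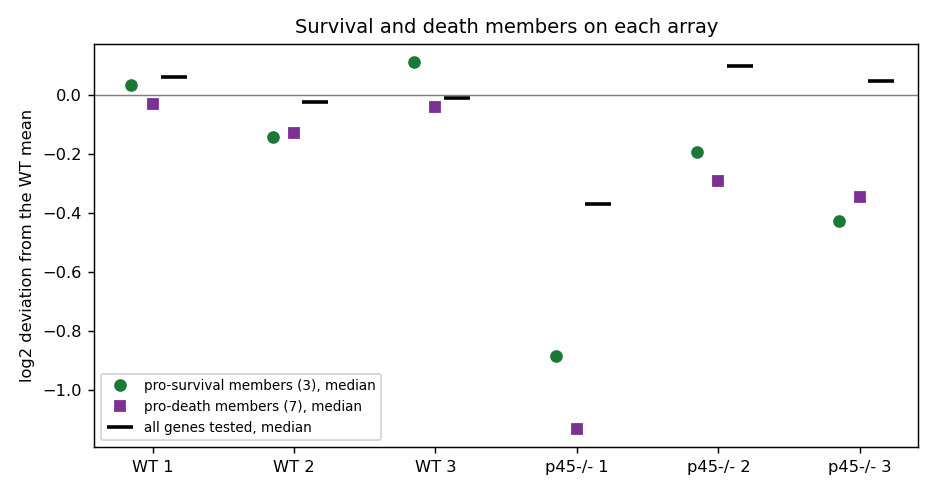
Median log2 deviation from the WT mean on each array for the 3 pro-survival members (green circles), the 7 pro-death members (purple squares) and all genes tested (black dashes). Both sides lie below 0 on all 3 p45-/- arrays, lowest on array 1 at -0.89 and -1.13, and the survival side lies below the death side on p45-/- array 3 and on WT array 2.

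Known binding partners were also set against each other within an array, each gene first taken as its deviation from the WT mean. Mcl1 minus Bcl2l11 was 0.23, 0.10 and 0.29 in p45-/- and 0.07, 0.03 and -0.10 in WT, the only 1 of 6 partner pairs whose groups did not overlap. The nearest arrays lay at 0.10 and 0.07. Of single genes 8.44% were lower and 4.77% higher without overlap, and the share over all gene pairs was not computed. The count of 1 of 6 is therefore a description only. Bcl2l1 minus Bak1, the pair known from platelets, was 0.19, 0.94 and -0.10 in p45-/- and -0.57, 0.37 and 0.21 in WT. Bcl2l1 minus Bax spread widest, at 0.13, 1.45 and -0.92 in p45-/- and -0.06, 0.13 and -0.07 in WT. These 2 overlapped, as did Mcl1 minus Bak1, Mcl1 minus Bbc3 and Mcl1 minus Pmaip1.

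Of the other BCL2 family genes, 9 of 14 were tested, with 5 higher and 4 lower in p45-/- and a median of 0.13 (all genes -0.05). Median scaling moves the differences of all genes down together, to a median of -0.56, and this list to 2 higher, 7 lower and -0.38. None passed the test. Bik, a BH3-only gene, had the smallest unadjusted p, with a log2 difference of 1.02 ± 0.45 (SE; adjusted p = 0.70 in limma) and overlapping groups. Bcl2l12, a family relative of less settled function, was at 1.15, 1.66 and 1.80 in p45-/- and 2.23, 2.34 and 1.88 in WT, without overlap (difference -0.61). Bcl2a1b and Bcl2a1c, near-identical copies of a survival gene whose probes may share transcripts, were highest on WT array 1. Bcl2l10 and Hrk were not well above background on any array, and Bcl2a1a, Bcl2a1d and Bok were not matched to a probe.

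The list of the mitochondrial death pathway lay mostly lower. It also holds inhibitors of apoptosis and genes that act at death receptors above BID, so it is not a list of killers alone. In it 20 of 21 genes were below WT in group mean, with a median of -0.35, where 53.5% of all genes were lower. Lower without overlap were 4 of them, where 8.44% of all genes were. Birc3, an inhibitor of apoptosis that acts for survival, was at 0.55, 1.47 and 1.54 in p45-/- and 2.12, 1.79 and 1.97 in WT, a difference of -0.77 (unadjusted p = 0.072, adjusted p = 0.70 in limma). Its groups did not overlap. Xiap and Birc2, chosen after their values were seen, are inhibitors of apoptosis too and were also lower without overlap, at -0.68 and -0.52. Without the arrays numbered 1 the list held 9 higher and 12 lower with a median of -0.07. With quantile normalization 13 of the 21 were lower (median -0.28). With the percentile over probes above background on all arrays 14 were lower (median -0.14).

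The p53 circuit, which feeds Bbc3, Pmaip1 and Bax, was split, with 11 of 16 genes higher, 5 lower and a median of 0.24, which median scaling turns to 5 higher, 11 lower and -0.27, where the median of all genes is -0.56. Gadd45a, a stress-induced growth arrest gene, was at 1.35, 1.33 and 0.72 in p45-/- and 1.96, 2.11 and 2.01 in WT, a difference of -0.89 (unadjusted p = 0.023, adjusted p = 0.70 in limma). Fas, the death receptor, showed -0.93, also without overlap. In the list 2 genes were lower and 1 higher without overlap, where 8.44% and 4.77% of all genes were. The higher one was Aen, at 0.55. Zmat3, Eda2r and Tnfrsf10b showed 1.26, 1.20 and 0.91, each with overlapping groups. Cdkn1a, the cell cycle inhibitor that p53 induces, differed by 0.02, and Mdm2, the feedback inhibitor of p53, by -0.29, both with overlap. These 2, and Aen, Zmat3, Eda2r and Tnfrsf10b, were chosen after their values were seen.

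The cytokine survival genes, which act upstream of Bad, Mcl1 and Bcl2l11, had 12 of 14 tested genes lower, a median of -0.28 and 3 lower without overlap (8.44% of all genes). Jak2, the kinase of the thrombopoietin receptor, was at 1.51, 2.68 and 2.67 in p45-/- and 2.70, 3.20 and 3.44 in WT, a difference of -0.83 (adjusted p = 0.70 in limma). Ddit3 (CHOP), a stress factor that activates Bcl2l11, showed -0.87 with overlapping groups. It is one of the 12, so the lower genes of this list are not all on the survival side. Quantile normalization left 8 of the 14 lower with a median of -0.06, and without p45-/- array 1 the median was -0.15. The turnover and binding partners, such as the 14-3-3 proteins that hold BAD, had 11 of 13 lower with a median of -0.21, led by Ywhaz at -0.55 and Ywhag at -0.37, both with overlap, and the list held 7 of 13 lower with quantile normalization and 5 of 13 without p45-/- array 1.

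**Figure D5:**
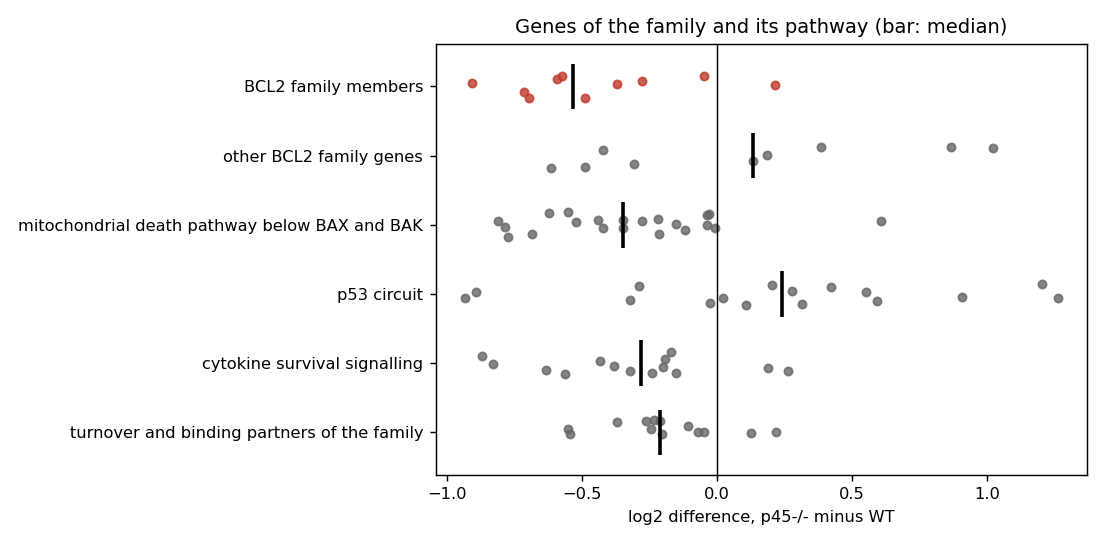
Log2 difference, p45-/- minus WT, of each tested gene in the members (red) and in the 5 lists of related genes (grey), with a bar at the median; vertical jitter has no meaning. The medians run from -0.53 for the members to 0.24 for the p53 circuit (-0.27 with median scaling, where the median of all genes is -0.56). Every list holds genes on both sides of 0.

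Markers of several cell types differed in group mean alongside the members, and in bulk RNA fewer cells of a type and less RNA per cell cannot be told apart. Of 17 megakaryocyte markers 15 were lower in p45-/-, with a median of -0.53, but 8 were lower with a median of 0.0047 without p45-/- array 1, and 15 with -0.45 without both arrays numbered 1. Their summed level (in multiples of the 75th percentile) was 1014 to 2247 against 1294 to 2421 in WT. Pf4, 1 of the 2 markers that were higher, and Itga2b define the lineage and differed by 0.08 and -0.15. Gp6, Clec1b and Selp differed by -6.09, -4.53 and -2.83. These were the 3 of 17 markers lower without overlap, where 8.44% of all genes were. Gp6 and Clec1b were called lower with the replicate block and not without it. The block called 0 genes with quantile normalization or without the arrays numbered 1. Of 17 erythroid markers 15 were higher, with a median of 1.62 and sums of 462 to 2200 against 378 to 844. All 13 hepatocyte markers tested were higher (median 0.94, and 1.44 without p45-/- array 1; sums 93.9 to 205 against 49.1 to 117). Of the stromal markers 11 of 12 were higher (median 0.52, and 1.07 without p45-/- array 1). With median scaling 6 of 12 were higher, with a median of 0.0098 where that of all genes was -0.56. All 12 neutrophil markers were lower (median -0.84, sums 542 to 1049 against 710 to 1290). The macrophage markers summed to 581 on WT array 1 and to 165 to 240 on the other 5, with Cd163 not well above background on any array, and WT array 1 also held the highest level of 4 of the 10 members (Mcl1, Bak1, Bcl2l11 and Pmaip1) and of 17.5% of all genes. Mast cell markers had 5 of 8 lower (median -0.86, and -0.33 without p45-/- array 1; sums 4.83 to 17.8 against 13.1 to 31.2). The part of these cells in the members' values was not tested.

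The genes whose levels ran most like those of 2 members were found by Pearson correlation over the 6 arrays. The search covered 12942 genes with a symbol, a number that counts the member itself, which was left out. For Mcl1 these were Ccdc122 (r = 0.999), Tm6sf1 (0.996) and Pcbd2 (0.995), and for Bbc3 they were Crk (0.983), Neurl3 (0.981) and Cybb (0.980). All genes come from the same 6 arrays, which differed in brightness, and 164 genes reached an r above 0.95 with Mcl1 and 26 with Bbc3. Without p45-/- array 1 the 6 values of r were 0.966 to 0.998. WT array 1, the highest for Mcl1, stayed in, so these values cannot show whether the likeness to Mcl1 rests on that array. The r without both arrays numbered 1 was not computed.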

How the data were processed

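Total RNA was labelled with Cy3 and hybridised to 1 Agilent array per sample, per the labels' protocols. Per the file headers, the deposited spot intensity had its background subtracted and its spatial trend removed by Feature Extraction 10.7.3.1 (10.1 per the submitters' processing notes), and is linear and not scaled between arrays.

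From it were computed log2 values minus each array's 75th percentile. Control spots were left out, 32 to 80 outlier spots per array set to missing and spots of a probe averaged. A probe stayed in when either group had it well above background on each array (23957 of 41174), and the probe with the highest mean represented its gene. RefSeq accessions were matched to GRCm38.p6 gene names (26690 probes named). Groups were compared with limma 3.58.1 (lmFit, eBayes) (two-sided) in R 4.3.3, adjusted by Benjamini-Hochberg at 0.05 and, for single genes, exact permutation tests. The fitting was tested on simulated data.

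Same-numbered arrays deviated together (r = 0.647, 0.589 and 0.270, all above the limit of 0.1), although p45-/- array 3 went more with WT array 2 (0.616), so the numbers were taken as pairs, from the data and not from a label. Slide 1 carried the arrays numbered 3 and slide 2 those numbered 1 and 2, and slide and scan are 1 batch. Normexp background correction used the median spot signal.

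The members and gene lists were chosen with earlier results of these data known. Named were all members with every probe, Nfe2, up to 4 called genes of each list or else the 2 with the smallest unadjusted p, and the 3 genes most alike to Mcl1 and Bbc3; other names are said to be chosen later or are lineage markers. A gene that the rule names is not reported here. Alternatives covered the block, slide, background, scaling, filter, probe choice, array weights, the series' value table and leaving arrays out.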

Additional observations from a re-analysis of the deposited data

How the results depend on the processing

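No member passed the threshold under any alternative that allowed a test. Of 230 member values over 23 alternatives, 203 kept their direction and 27 turned. The lowest adjusted p was 0.059, for Bbc3 with the replicate block and median scaling, and Bbc3, Bak1, Bcl2l1 and Bcl2l11 were lower in p45-/- in every alternative. The replicate block called 5 genes and left every member uncalled. Median scaling called 10 genes, array weights 455, leaving out the arrays numbered 1 called 18 and the block with median scaling 1589, but the block with quantile normalization or without the arrays numbered 1 called 0, while leaving out 1 array called 0 to 1 (1 without WT array 1). Bcl2 turned to -0.30 with median scaling (with the block too), -0.11 as the mean of its probes, -0.50 with array weights, -0.52 without the arrays numbered 1 and -0.54 within slide 1, and ran from -0.53 to 0.64 when 1 array was left out. Without the arrays numbered 1, with or without the block, Mcl1 was 0.0056, Bid 0.13, Bad 0.067 and Pmaip1 0.19. With array weights Bid was 0.11, Bad 0.11 and Pmaip1 0.00062. Within slide 1 Bax was 0.20, Bid 0.065 and Bad 0.22. Bad was 0.41 with normexp and 0.15 with the percentile over probes above background on all arrays. Leaving out 1 array gave -0.55 to 0.15 for Bid, -0.16 to 0.14 for Bad, -0.70 to -0.11 for Bcl2l1, -0.64 to -0.23 for Mcl1 (highest without p45-/- array 1), -1.09 to -0.30 for Bax (highest without p45-/- array 2), -0.90 to -0.42 for Bcl2l11 (highest without p45-/- array 1) and -0.91 to -0.12 for Pmaip1 (highest without WT array 1). The survival minus death difference was -0.42 within slide 1, -0.08 without the arrays numbered 1, and 0.10 to 0.53 with 1 array left out. The members lower in group mean numbered 6 without the arrays numbered 1 and 10 with median scaling, which shifts the median of all genes from -0.05 to -0.56. They also numbered 10 with the mean of a gene's kept probes, where 52.6% of all genes were lower and their median was -0.03. The alternatives that join the block with another choice were chosen after seeing the data. Causes of these differences were not tested. The number of arrays limits the precision.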
